A study of Danio rerio with 12 samples.

Results

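The genes described here encode the mitochondrial respiratory chain and ATP synthase, measured in whole zebrafish embryos in which the glucocorticoid receptor (GR) was targeted with a morpholino. Members were taken as every gene whose symbol starts with nduf, sdha to sdhd, uqcr, cox4 to cox8 or atp5, and this found 77 of the 10916 named genes on the array. The symbols also take in 7 assembly factors of complexes I and II (ndufaf and sdhaf genes), which build the complexes but are not part of them. A further 32 genes with such symbols had no probe matched by accession and were not analysed here. One-cell embryos were injected with 4.4 ng in 1 nL of either the GR morpholino (MO) or a mispair control morpholino (MP), and pools of 25 embryos were frozen at 24 or 36 h post fertilization (hpf). The 4 groups, 24MO, 24MP, 36MO and 36MP, held 3 pools each from repeated experiments, with 1 Agilent one-color array per pool; the replicates came from separate breeding events. The labels give no strain, the adult fish came from a commercial supplier, and all groups carried an injected oligonucleotide, so none was uninjected.

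The respiratory chain is a series of protein complexes in the inner mitochondrial membrane. Complex I (NADH dehydrogenase) and complex II (succinate dehydrogenase) pass electrons to coenzyme Q, complex III (cytochrome bc1) passes them on to cytochrome c, and complex IV (cytochrome c oxidase) passes them to oxygen. Complexes I, III and IV pump protons as they do so, and ATP synthase uses the returning protons to make ATP. Most subunits come from nuclear genes, as all members here do, and a few come from mitochondrial DNA, for which no gene was found on the array. The demand on this machinery is high in heart, skeletal muscle and brain.

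The morpholino is an antisense oligonucleotide that was directed at the start of translation of the GR mRNA. It is shown because it defines the treatment, with the complement of the start codon in capitals.
GR morpholino: ctccagtcctccttgatcCATtttg
The labels print this same sequence for the mispair control while calling it changed, and the study's methods print a different one, so the sources disagree on the control's bases. A block of translation need not alter the mRNA, so the mRNA of GR (nr3c1) gives no check of the labels, and groups are named as labelled throughout. Changes are given as MO minus MP on the log2 scale, with the direction taken from the sample labels. This direction is opposite to that in which the study describes its array changes. The study also reports quantitative PCR (qPCR) on further pools of embryos at the later time. All genes it measured by qPCR changed in the same direction as in its array results. That qPCR thus goes with the study's direction and not with that of the labels. Which direction is right was not tested. If the study's direction is right, every sign of MO minus MP given here would be reversed. If that came from exchanged labels, the levels, array traits and changes over time given for MO would belong to MP, and the reverse.

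Every level is a log2 normalized intensity, which is the probe's intensity over the array's median for 19114 bright probes, so levels of different genes are not compared with each other. Median probe intensity was 129.9 to 172 at 24 hpf, 84.5 to 172 in 36MP and 35.8 to 106 in 36MO. The array of 36MO replicate 2 was the dimmest and stood apart, with a correlation of 0.944 and 0.954 with the other arrays of its group and of 0.959 with its closest array, 24MO replicate 3. The most alike arrays were 24MP replicates 1 and 3 (0.998, against 0.992 for each with replicate 2). Each slide held an MO and an MP array of the same time. The 24 and 36 hpf arrays lay on different slides scanned on different days, so sampling time cannot be told apart from slide and scan day. Testing required that every array of either group compared showed the probe well above background, and 76 of the 77 members met this in every comparison. The remaining member, ndufs8b, a copy of the complex I core subunit ndufs8, stayed too close to background throughout the 12 arrays. No probe was saturated.

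At 24 hpf, transcripts of the respiratory chain and ATP synthase were mostly lower in MO than in MP. Of the 76 members, 37 fell and 3 rose at an adjusted p under 0.05 (limma with Benjamini-Hochberg adjustment over 10354 genes), while 36 did not pass. The background for falls was 24% of all genes tested, that for rises was 24.3%, and 48.3% changed in either direction, so the number of members changed was near the background and the direction was not. In whole embryos, fewer cells of a type and less RNA per cell cannot be told apart. The median log2 change was -0.23 over the members and 0.01 over all genes, and 62 of 76 members lay below 0, as did 49.4% of all genes. The falls were small, with a median of -0.41 over the 37 members that fell against -0.67 over all genes that fell. Only 3 members, ndufa4l2a, atp5pf and sdhdb, fell by more than 1, a further 6 fell by 0.5 to 1, and 28 by less than 0.5.

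The values of MO and MP did not overlap for 41 members that were lower and 3 that were higher in MO. Of the 10354 genes tested, 3110 (30%) were lower and 3077 were higher without overlap. In either direction this was 57.9% of members and 59.8% of all genes, so the number apart was near the background and the direction was not. Members have bright probes. Among the 1864 genes with a mean log2 raw intensity of at least 12.4, the lower quartile of the members, 25.2% fell and the median change was -0.03. For the 58 members in that range, 51.7% fell and the median was -0.24. On the 3 slides the median difference over members was -0.20, -0.22 and -0.36, with 51, 64 and 66 of 76 members lower in MO, while the median over all genes was -0.01, 0.01 and -0.01.

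**Figure D1:**
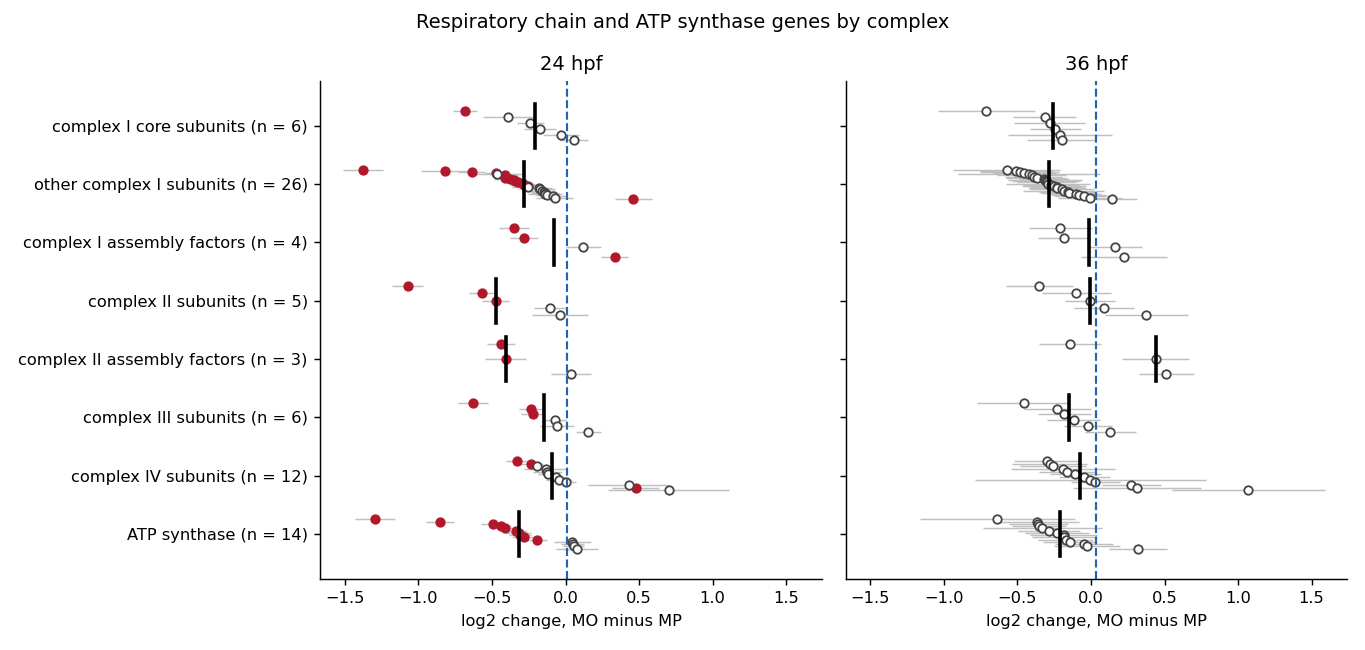
Log2 change (MO minus MP, horizontal axis) of 76 genes grouped by complex (vertical axis) at 24 and 36 hpf; points are genes with their standard error, filled where the adjusted p was under 0.05, black bars are group medians and the dashed line is the median of all genes tested. At 24 hpf the filled points lie mostly to the left, with 37 genes lower and 3 higher, and at 36 hpf no point is filled.

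Complex I takes electrons from NADH, and its core subunits carry the flavin and the iron-sulfur clusters of the electron path. Counts by complex stand beside 24% falls and 24.3% rises over all genes. Of 6 core subunits tested at 24 hpf, 1 fell (16.7%), ndufs1, which holds several of the clusters. Its values were 3.97, 3.86 and 3.88 in MO and 4.52, 4.70 and 4.53 in MP, so the groups were well apart, with a log2 change of -0.68 (SE 0.08, adjusted p = 0.000222). A second, dimmer probe of ndufs1 differed by only -0.15. The core subunits ndufs3, ndufs8a, ndufv1 and ndufv2 did not pass, with changes from -0.39 for ndufs8a to 0.06 for ndufv2.

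The accessory subunits surround the core and are needed for its assembly and stability. Genes were grouped by symbol, so ndufa4a and ndufa4l2a are counted here. Of the 26 genes in this group, 14 fell (54%) and 1 rose (3.8%), with a median of -0.29. The largest fall of any member was that of ndufa4l2a, a relative of ndufa4 that is induced by hypoxia in mammalian cells. Its values were -4.0, -3.81 and -3.76 in MO and -2.47, -2.53 and -2.42 in MP, a log2 change of -1.38 (SE 0.13, adjusted p = 7.43e-05), or 2.60-fold lower. For ndufa1, a small membrane subunit, the values were -3.08, -3.20 and -3.35 in MO and -2.60, -2.44 and -2.12 in MP, with a change of -0.82 (SE 0.16, adjusted p = 0.00291). Both genes were separated fully by group. The other 12 that fell were ndufa2, ndufa5, ndufa7, ndufa8, ndufa10, ndufb2, ndufb5, ndufb7, ndufb8, ndufb10, ndufb11 and ndufs4, with changes from -0.64 for ndufa2 to -0.26 for ndufb11.

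The accessory member that rose was ndufa4a, one of the zebrafish genes for ndufa4, which was first described with complex I and is now placed in complex IV. Its values were 5.61, 5.49 and 5.48 in MO and 5.31, 4.78 and 5.11 in MP, with a change of 0.46 (SE 0.13, adjusted p = 0.0161). The lowest MO value lay above the highest MP value, and a second probe of the gene differed by 0.43. The adjusted p of ndufa4a was 0.0592 without the array whose removal weakened it most. Among assembly factors of complex I, ndufaf1 and ndufaf5 fell by 0.35 and 0.28, and ndufaf2, a chaperone of late assembly, rose by 0.33 (SE 0.09, adjusted p = 0.0178). The values of ndufaf2 were 1.23, 1.19 and 1.26 in MO and 0.79, 1.03 and 0.86 in MP. The 2 probes of ndufaf7 disagreed in size, with 0.12 for the brighter probe, which was used, and 1.17 for the other, and the gene passed as a rise when all probes of a gene were averaged.

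Complex II also belongs to the tricarboxylic acid cycle, and it is the complex with no subunit from mitochondrial DNA. Of its 5 genes tested, sdha, sdhb and sdhdb fell. The flavoprotein sdha had values of 3.74, 3.5 and 3.59 in MO and 4.22, 4.14 and 4.17 in MP, a log2 change of -0.57 (SE 0.09, adjusted p = 0.000747). Its 3 other probes differed by -0.29, -0.45 and -0.79. The iron-sulfur subunit sdhb had values of 3.21, 2.94 and 3.09 in MO and 3.59, 3.53 and 3.55 in MP, with a change of -0.48 (SE 0.09, adjusted p = 0.00243). Neither gene had overlapping groups. For the membrane anchor sdhdb, the values were -0.11, 0.06 and 0.02 in MO and 1.00, 1.23 and 0.96 in MP, with a change of -1.07 (SE 0.11, adjusted p = 8.06e-05), or 2.10-fold lower. Its counterpart sdhda had a change of -0.04 (SE 0.19, adjusted p = 0.888), and sdhc, the other anchor, had a change of -0.11 (SE 0.10, adjusted p = 0.424). Of the assembly factors, sdhaf2, which helps attach the flavin to sdha, fell by 0.41 (SE 0.14, adjusted p = 0.0385), although 1 of its MO values lay within the range of MP. The iron-sulfur assembly factor sdhaf3 fell by 0.44 (SE 0.10, adjusted p = 0.00519), and sdhaf4 had a change of 0.04.

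Complex III carried 3 falls and no rise among 6 genes. This was 50% changed, against 48.3% of all genes, of which 24% fell. The Rieske iron-sulfur protein uqcrfs1 had values of 2.40, 2.34 and 2.17 in MO and 2.86, 3.09 and 2.85 in MP, a change of -0.63 (SE 0.10, adjusted p = 0.00117). The core protein genes uqcrc2a and uqcrc2b fell by 0.22 and 0.23, with adjusted p of 0.0469 and 0.0482, close to the threshold. The small subunits uqcrb, uqcrh and uqcrq did not pass, with changes of 0.15, -0.07 and -0.06.

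Over all genes 24% fell and 24.3% rose. The complex IV group had 2 falls (16.7%) and 1 rise (8.3%) among 12, with a median of -0.09. It held the cox genes only, without ndufa4a and ndufa4l2a, which were counted with complex I by symbol. The falls were cox7a2a (-0.33, SE 0.07, adjusted p = 0.00572) and cox5ba (-0.24, SE 0.08, adjusted p = 0.0413), of which cox5ba passed in only 1 of the 6 removals of an array and had an adjusted p of 0.0641 with the slide as a block. The rise was that of cox6b1, a subunit on the side of the intermembrane space. Its values were 2.57, 2.62 and 2.43 in MO and 2.21, 1.67 and 2.31 in MP, with a change of 0.48 (SE 0.16, adjusted p = 0.0357). The groups did not overlap, but MP replicate 2 lay well below the other MP arrays. For cox6a2, which in mammals is the heart and skeletal muscle form of its subunit, the values were -1.88, -3.12 and -3.80 in MO and -3.63, -3.88 and -3.39 in MP. The change of 0.70 (SE 0.41, adjusted p = 0.191) came with overlapping groups, and MO replicate 1 was the highest of the 6 arrays.

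ATP synthase had the most falls for its size, 10 of 14 genes (71.4%, against 24% of all genes), with no rise and a median of -0.31. The largest was in atp5pf, coupling factor 6 of the peripheral stalk that holds the catalytic head in place. Its values were 0.09, 0.53 and 0.23 in MO and 1.75, 1.53 and 1.46 in MP, with no overlap, a change of -1.29 (SE 0.13, adjusted p = 0.000101), or 2.45-fold lower. For atp5mc3a, one of the genes for the subunit c that forms the turning ring, the values were 2.60, 2.67 and 2.53 in MO and 3.35, 3.62 and 3.39 in MP, with a change of -0.85 (SE 0.10, adjusted p = 0.000152). The falls also took in other parts of the enzyme. These were the catalytic head and its stalk (atp5fa1, atp5f1b, atp5f1c and atp5f1d, -0.19 to -0.41), the peripheral stalk (atp5pb and atp5po, -0.44 and -0.31) and the membrane subunits e and g (atp5meb and atp5l, -0.50 and -0.34). A second probe gave smaller differences for atp5meb (-0.18) and for atp5fa1 (-0.07, against -0.32 for the probe used). The 4 genes that did not pass were the stalk subunit atp5pd, the ring gene atp5mc3b and the inhibitory factors atp5if1a and atp5if1b, which restrain the enzyme when it runs in reverse, with changes between 0.04 and 0.08.

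**Figure D2:**
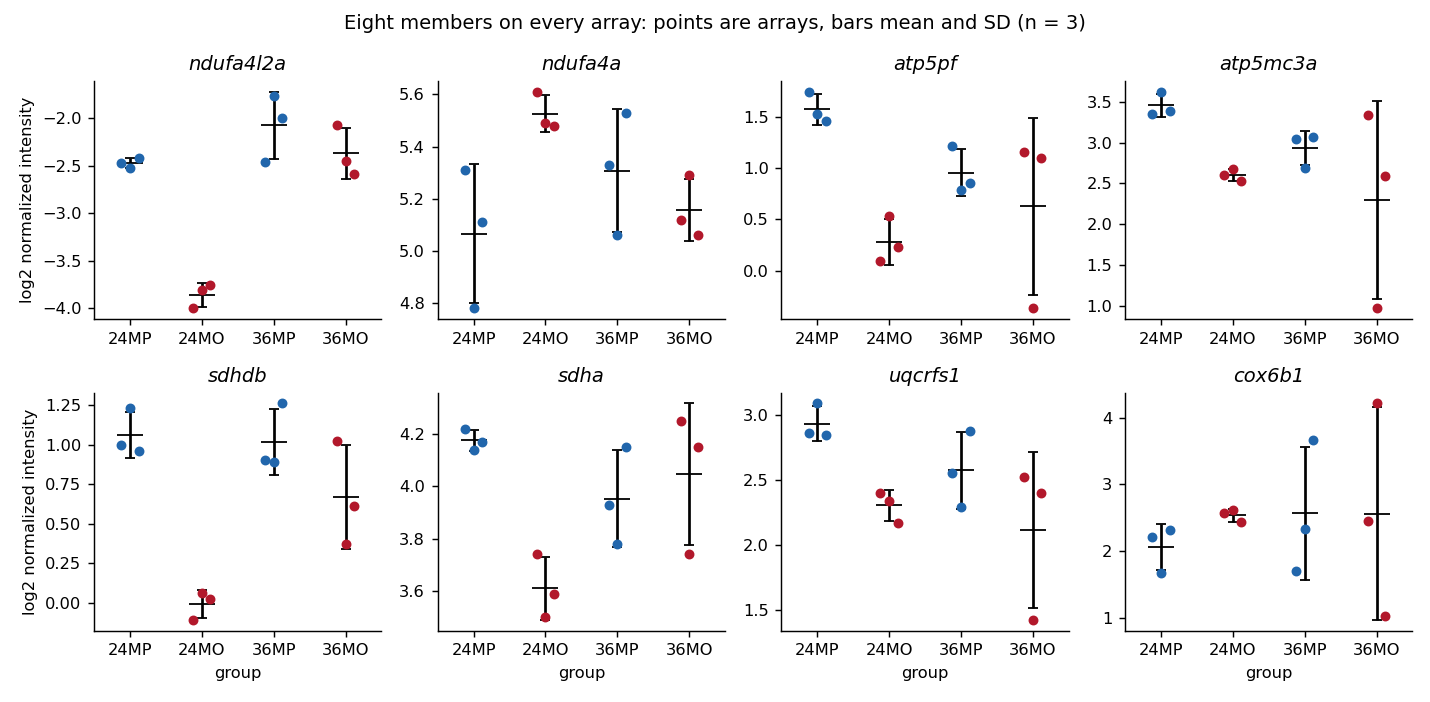
Log2 normalized intensity (vertical axis) of 8 members on every array, by group (horizontal axis); points are arrays and bars the mean and SD of 3 arrays. At 24 hpf the MO and MP points are apart for all 8 genes, lower in MO for 6 of them and higher for ndufa4a and cox6b1, while at 36 hpf the points of MO and MP overlap.

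Several subunits have paired genes in the zebrafish, and 10 such pairs were compared after their values were seen, by the log2 ratio of the members of a pair on each array. With 3 against 3 arrays the exact permutation test (two-sided) cannot give a p below 0.1, so no pair could reach 0.05. At 24 hpf the ratio was apart between MO and MP for 5 pairs, each at that smallest p of 0.1. The ratio of ndufa4a to ndufa4l2a was 9.61, 9.30 and 9.24 in MO and 7.78, 7.32 and 7.53 in MP, a difference of 1.84 (SE 0.18). The ratio of sdhda to sdhdb differed by 1.04 (SE 0.26), and that of atp5mc3a to atp5mc3b by -0.91 (SE 0.12). In each of these 3 pairs, 1 gene had a clearly larger shift between the groups than its partner. The ratio of cox6b1 to cox6b2 differed by 0.48 (SE 0.18), and that of cox7a2a to cox7a2l, which takes part in joining complexes III and IV, by -0.29 (SE 0.07). The other 5 pairs overlapped between groups, among them uqcrc2a and uqcrc2b, with a difference of 0.01 (SE 0.08), and cox4i1 and cox4i2, with 0.02 (SE 0.12). Of 20 members with several probes, 21 of 22 additional probes lay on the same side of 0 as the probe used at 24 hpf, and the exception was a probe of sdhc (0.15). At 36 hpf only the ratio of cox7a2a to cox7a2l was apart (-0.56, SE 0.29, exact p = 0.1).

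The falls at 24 hpf held unevenly. Leaving out each of the 6 arrays in turn gave 28 to 41 members changed, and 24 of the 37 falls, but none of the 3 rises, passed every time. The share of calls that passed every removal was not computed over all genes, in this or the other comparisons. The same removals gave 4161 to 5072 changed over all genes, against 5000 with all arrays. Without 24MO replicate 1, 28 members changed, against 40 with all arrays, while 4161 of all genes did. Both counts thus fell there, that of the members by the larger share. The 24 falls that passed every time included ndufs1, sdha, sdhb, sdhdb, uqcrfs1, cox7a2a and 7 of the 10 ATP synthase genes. With the slide as a block, 35 members changed, and 34 of them had passed in the same direction without it. Over all genes 4885 changed with the block. The 6 calls lost with the block were atp5f1d, ndufaf5, uqcrc2a, uqcrc2b, cox5ba and ndufb11, with adjusted p from 0.0558 to 0.104. Dividing instead by the median of the positive control spots moved the median over all genes from 0.01 to -0.42 and that of the members to -0.67, so the distance between them stayed near -0.25. Of the 76 members 13 then fell and none rose, against a background of 19.2% falls, 4.9% rises and 24.1% changes in all, so the share of members that fell lay below that of all genes. The change of ndufaf2 turned from 0.33 to -0.10. A fit of all 12 arrays together left 11 falls and no rise, against a background of 11% falls, 10.4% rises and 21.3% changes in all, so the share of members that fell was close to the background.

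Other genes of mitochondrial energy metabolism were described by lists, at 24 hpf. The background was 24% falls and 24.3% rises over all genes. Of 18 genes tested of the tricarboxylic acid cycle and pyruvate dehydrogenase, 13 fell and none rose (median -0.42), the largest fall being that of pdha1b, a subunit of pyruvate dehydrogenase (-1.49, SE 0.39, adjusted p = 0.0122). Of 17 genes for electron carriers and coenzyme Q synthesis, 13 fell and none rose (median -0.48), with coq3, a methyltransferase of coenzyme Q synthesis, at -0.88 (SE 0.10, adjusted p = 0.000205). Of 23 other assembly factors of the complexes, 15 fell and none rose (median -0.34), with cox11, which brings copper to complex IV, at -1.64 (SE 0.12, adjusted p = 1.83e-05). Of 26 genes for protein import and cristae, 15 fell and 2 rose (median -0.34). The largest changes there were in the import genes timm8a (-1.14, SE 0.21, adjusted p = 0.00231) and tomm20a (0.69, SE 0.08, adjusted p = 0.000246).

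The mitochondrial ribosome moved less, with 18 falls (29.5%) and 1 rise (1.6%) among 61 genes and a median of -0.15. Of 10 regulators of mitochondrial DNA and biogenesis, none fell and 1 rose, the transcription factor nrf1 (0.37, SE 0.10, adjusted p = 0.0155). Among 10 carriers and energy transfer genes, 3 fell and 2 rose (median 0.00). The adenine nucleotide carrier slc25a4, which is the muscle form in mammals, had the largest fall (-2.42, SE 0.27, adjusted p = 0.000155), and the mitochondrial creatine kinase ckmt1 the largest rise (0.76, SE 0.11, adjusted p = 0.00066). No gene of the mitochondrial genome was found.

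**Figure D3:**
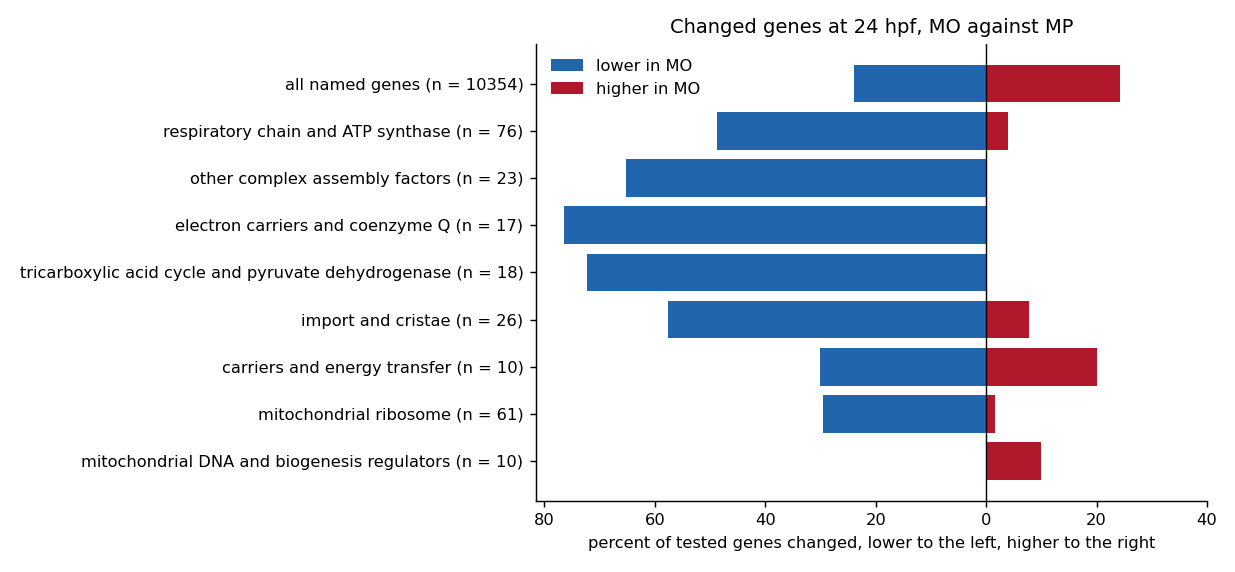
Percent of tested genes that changed between MO and MP at 24 hpf (horizontal axis, lower in MO to the left and higher to the right) for all named genes, the members and lists of other mitochondrial genes (vertical axis). All named genes divide evenly, with 24% lower and 24.3% higher, while the members and most lists lean to the left.

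Markers of several tissues also changed at 24 hpf, some lists falling and others rising or divided, beside 24% falls and 24.3% rises over all genes. Of fast skeletal muscle markers, 9 of 10 tested fell and none rose (median -1.47), and the summed intensity of the list was 167 to 209 in MO and 381 to 503 in MP. All 6 neuronal markers fell (median -1.04), with sums of 39.5 to 41.2 in MO and 74.4 to 98.3 in MP, and all 6 red blood cell markers fell (median -0.98), with sums of 196 to 223 and 379 to 417. Of 6 epidermal markers 3 rose and none fell (median 0.43), and of 6 heart markers 3 fell and 2 rose. Of 5 ionocyte markers 3 fell and 1 rose (median -0.49), and of 3 markers of the yolk syncytial layer and liver 1 fell and 2 rose (median 0.34). The sums of ionocyte markers were 50.1 to 53.5 in MO and 42.7 to 45.3 in MP, above MP although the median change was below 0. No marker of these lists was below background on all arrays of a group. Their part in the change of the members was not tested.

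At 36 hpf no member passed the test, while 6.38% of 9890 genes did. At an unadjusted p under 0.05 by limma there was 1 of 76 members, against 2105 of the 9890 genes, so the share of members was far lower. The methods' t-test gave 2 members on either log2 or linear values, with no share over all genes to set beside them. After adjustment it passed no member, and 2 of all genes on log2 and 4 on linear values. The median log2 change was -0.19 over members and 0.03 over all genes, and 63 of 76 members lay below 0, as did 47.6% of all genes. Arrays varied more at this time, with a median SE over the members of 0.21 against 0.09 at 24 hpf. The values of MO lay wholly below those of MP for 6 members and wholly above for 1. Of the 9890 genes tested, 1498 (15.1%) were lower and 1396 were higher without overlap. In either direction this was 9.2% of members and 29.3% of all genes.

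The slides did not agree at 36 hpf. On slide 4, which held 36MO replicate 1 and 36MP replicate 2, the median difference over members was 0.17 and only 16 of 76 members were lower in MO. On the other 2 slides it was -0.35 and -0.41, with 65 and 57 members lower. The median over all genes was 0.11 on slide 4 and 0.01 and 0.00 on the others. Leaving out the dim array 36MO replicate 2 gave a median of -0.11 with 55 of 76 members below 0, and the median over the removals of each array ran from -0.31 to -0.11.

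**Figure D4:**
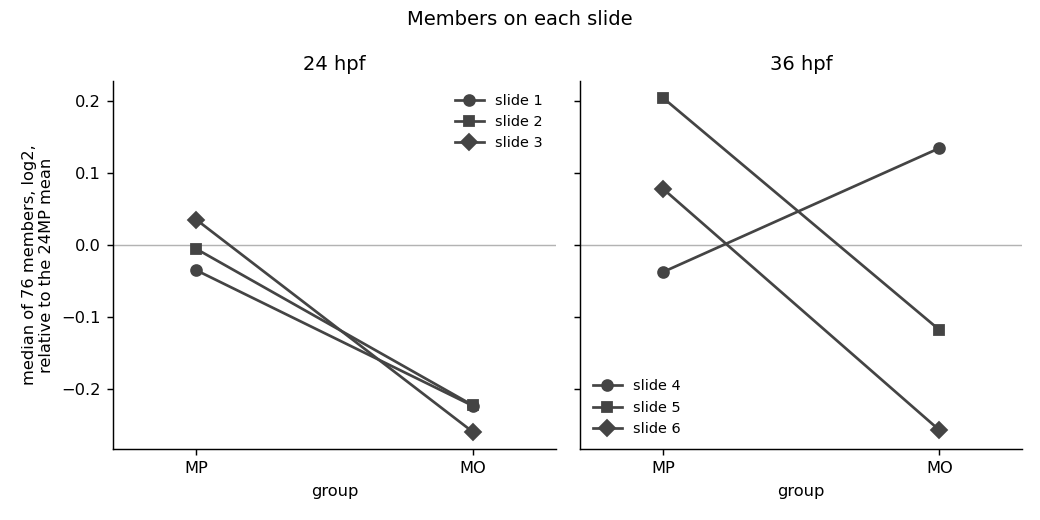
Median over 76 members of the log2 intensity relative to the mean of the 24MP arrays (vertical axis) in MP and MO (horizontal axis) at each time, with a line joining the arrays that shared a slide. All 3 lines fall at 24 hpf, whereas at 36 hpf 2 fall and that of slide 4 rises.

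Single members at 36 hpf are therefore given as values. The lowest unadjusted p was that of sdhaf4, an assembly factor of the complex II flavoprotein, with 1.70, 1.35 and 1.72 in MO and 0.97, 1.13 and 1.13 in MP. Its groups did not overlap, and the change was 0.51 (SE 0.19, adjusted p = 0.162). Leaving out 36MO replicate 2 changed this to 0.63 (adjusted p = 0.0345). For the core subunit ndufs8a the values were 2.73, 1.46 and 2.34 in MO and 3.0, 2.57 and 3.09 in MP, a change of -0.71 (SE 0.33, adjusted p = 0.265). This fell to -0.35 without 36MO replicate 2. The change of atp5mc3a was -0.64 (SE 0.53, adjusted p = 0.529) and rested on the value of 0.97 on that array, against 3.34 and 2.59 on the other MO arrays. The highest change was 1.07 for cox5b2 (SE 0.52, adjusted p = 0.285), with 1.52 on that array and -0.68 and 0.35 on the others. Further values were -0.57 (SE 0.36) for ndufa9a, -0.46 (SE 0.32) for uqcrfs1, 0.38 (SE 0.28) for sdhda, 0.09 (SE 0.20) for sdha, -0.10 (SE 0.24) for sdhb, -0.15 (SE 0.19) for ndufa4a, 0.32 (SE 0.20) for atp5if1a and 0.22 (SE 0.29) for ndufaf7. The other probe of ndufaf7 differed by 1.08.

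By complex, the medians at 36 hpf were -0.26 for the core and -0.28 for the accessory subunits of complex I, -0.01 for complex II, -0.15 for complex III, -0.08 for complex IV and -0.21 for ATP synthase. All 6 core subunits and 25 of 26 accessory subunits of complex I lay below 0, as did 13 of 14 ATP synthase genes and 47.6% of all genes. Of the 37 members that fell at 24 hpf, 34 were below 0 at 36 hpf, as were 63 of all 76 members. Among the lists, 1 gene of the tricarboxylic acid cycle and pyruvate dehydrogenase, dldh, passed at 36 hpf (-0.75, SE 0.16, adjusted p = 0.0373), with a median of -0.48 over 18 genes that were all below 0. The carrier slc25a4 fell again (-3.96, SE 0.53, adjusted p = 0.011). The medians were 0.01 for the other assembly factors, -0.14 for electron carriers and coenzyme Q, -0.08 for import and cristae, 0.08 for the mitochondrial ribosome, 0.12 for carriers and energy transfer and 0.29 for the regulators of biogenesis, with no further gene passing. Fast muscle markers were lower for all 10 genes (median -1.5, 4 passing), and red blood cell markers lay above 0 for all 6 (median 0.96, none passing). All 6 neuronal markers lay below 0 (median -0.85, 3 passing), and all 6 epidermal markers lay above 0 (median 0.98, none passing). Of 6 heart markers 1 rose (median 0.58), of 5 ionocyte markers 1 fell (median -0.03), and of 4 yolk and liver markers 1 fell (median 1.3). The part of these markers was not tested.

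**Figure D5:**
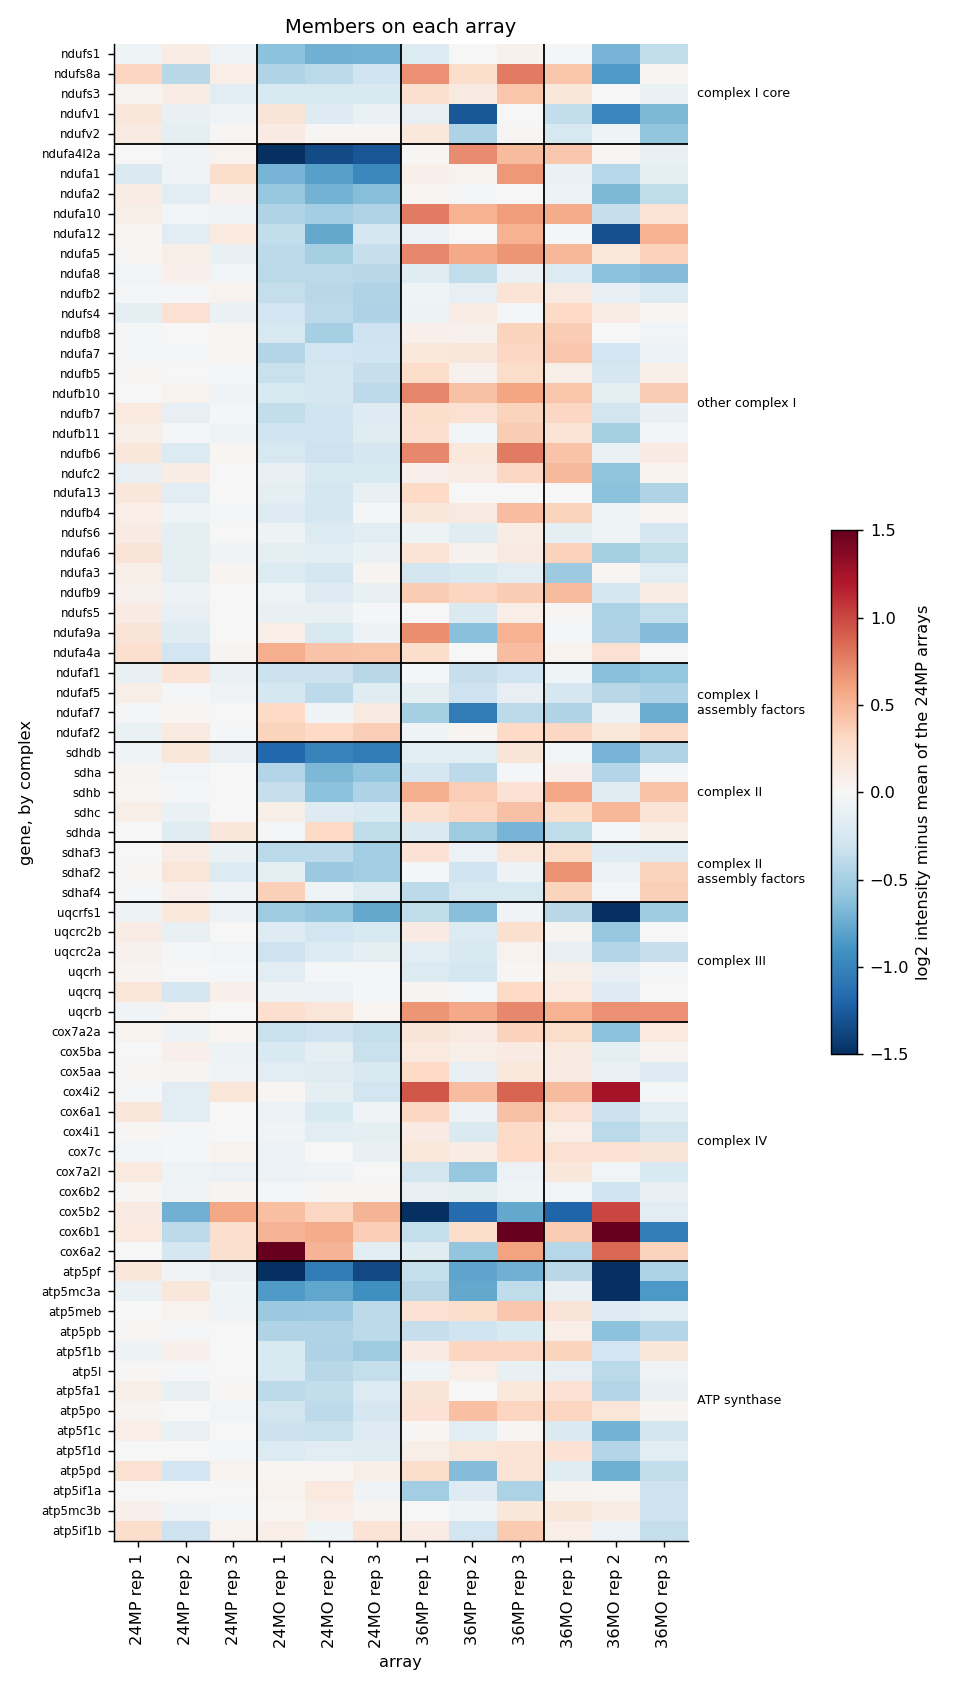
Log2 intensity of 75 members (vertical axis, grouped by complex and ordered by their change at 24 hpf) on each of the 12 arrays (horizontal axis), relative to the gene's mean over the 3 24MP arrays; blue is lower and red higher, and colors are capped at 1.5. The 24MO columns are blue for most members, and 36MO replicate 2 differs from the other 36MO columns for many genes, with atp5mc3a much lower and cox6b1 much higher.

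From 24 to 36 hpf in MP, the median log2 change was 0.09 over the members and -0.06 over all genes. The median over members ran from 0.01 to 0.17 without each array in turn and was -0.03 with quantile normalization. Its distance from the median of all genes was 0.15, and 0.05 with quantile normalization or normexp background correction. Of 76 members, 8 rose and 5 fell, and 63 did not pass, against a background of 14.4% rises, 16.1% falls and 30.5% changes in all, so fewer members passed than the background in either direction. The rises were in complex I accessory subunits (ndufa5, ndufa10, ndufb6, ndufb9 and ndufb10), sdhb, uqcrb and cox4i2. The largest with little spread was in uqcrb, a small subunit of complex III, with 4.96, 4.87 and 5.02 at 36 hpf and 4.25, 4.35 and 4.30 at 24 hpf, a change of 0.65 (SE 0.10, adjusted p = 0.00263). For ndufa5 the values were 3.74, 3.59 and 3.68 against 3.04, 3.10 and 2.91, with a change of 0.65 (SE 0.11, adjusted p = 0.00335). For ndufa10 they were 4.84, 4.58 and 4.68 against 4.15, 4.02 and 4.0, with a change of 0.64 (SE 0.11, adjusted p = 0.00435). The times were fully apart for all 3 genes.

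The gene cox4i2, which encodes the form of subunit 4 that hypoxia induces in mammals, rose by 0.76 (SE 0.19, adjusted p = 0.018), from -2.57, -2.71 and -2.36 to -1.61, -2.08 and -1.67. The rise of sdhb was 0.37 (SE 0.12, adjusted p = 0.0416), while sdhc (0.33), sdha (-0.23), sdhda (-0.48) and sdhdb (-0.05) did not pass, nor did ndufa4l2a (0.40), ndufa4a (0.24) and atp5if1b (0.07). The falls were in cox5b2 (-1.19, SE 0.33, adjusted p = 0.0277), ndufaf7 (-0.65, SE 0.20, adjusted p = 0.0372), atp5pf (-0.62, SE 0.15, adjusted p = 0.0163), atp5mc3a (-0.52, SE 0.14, adjusted p = 0.0243) and the inhibitory factor atp5if1a (-0.40, SE 0.12, adjusted p = 0.0381). Both atp5pf and atp5mc3a were thus also among the genes lower in MO at 24 hpf, a comparison that shares the 24MP arrays. No core subunit of complex I or assembly factor of complex II passed, the values with the largest change being 0.58 (SE 0.21) for ndufs8a and -0.29 (SE 0.11) for sdhaf4. The rises of uqcrb, ndufa5, ndufa10 and ndufb10 passed in each removal of 1 of the 6 arrays. The count was 5, 6 and 6 members without 24MP replicates 1, 2 and 3, and 1779, 2430 and 1788 over all genes. None of the 5 falls passed in every removal, and no fall passed without 24MP replicate 1, with 24MP replicates 1 and 3 averaged, or in the fit of all 12 arrays. No member passed when arrays were divided by the positive control spots, where only 124 of all genes tested passed, against 3142 in the main test. Fast muscle markers rose (9 of 10, median 1.2), as did 4 of 6 neuronal and 1 of 6 heart markers, while 5 of 6 red blood cell and 3 of 6 epidermal markers fell. Ionocyte markers and those of yolk and liver divided evenly, with 2 rises and 2 falls each. Their part was not tested.

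From 24 to 36 hpf in MO, 2 members rose and none fell, against a background of 11.8% of all genes changed. These were ndufa4l2a, with -2.07, -2.45 and -2.59 at 36 hpf and -4.0, -3.81 and -3.76 at 24 hpf (1.48, SE 0.22, adjusted p = 0.016), and ndufa5, with 3.51, 3.18 and 3.36 against 2.62, 2.52 and 2.67 (0.74, SE 0.14, adjusted p = 0.0263). The times were apart for both genes. The median over members was 0.14, and -0.08 over all genes. Their distance of 0.22 became 0.07 with quantile normalization and -0.01 with normexp background correction, so it depended on the processing. Values that did not pass included sdhdb at 0.67 (SE 0.20), sdha at 0.44 (SE 0.18), sdhc at 0.43 (SE 0.16), sdhda at -0.07 (SE 0.26), ndufa4a at -0.37 (SE 0.14), atp5if1a at -0.13 (SE 0.16) and atp5if1b at -0.20 (SE 0.17). Among the others were sdhb at 0.75 (SE 0.22, adjusted p = 0.0691), sdhaf2 at 0.71 (SE 0.23), cox4i2 at 0.71 (SE 0.33), atp5po at 0.49 (SE 0.14), uqcrb at 0.47 (SE 0.14), ndufaf7 at -0.55 (SE 0.23) and ndufv1 at -0.65 (SE 0.20). Of the markers, 3 of 10 for fast muscle, 3 of 6 for heart, 3 of 6 for neurons and 2 of 4 for yolk and liver rose, and none of any list fell. Their part was not tested.

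The count in MO turned on 36MO replicate 2. Without that array 38 of 76 members changed, against a background of 49.7% of all genes, so the number changed was near the background. Of these, 32 were higher and 6 lower at 36 hpf, while 23.7% of all genes were higher and 26% lower. The rises included 15 accessory subunits of complex I, and sdha, sdhb, sdhc and sdhdb. The largest after ndufa4l2a (1.52) were sdhb (0.98), sdhaf2 (0.91), ndufa10 (0.85) and atp5pf (0.84). The count was 0 without each of the 24MO arrays in turn, where only 36, 22 and 64 of all genes changed, against 1204 with all arrays. It was 1 without 36MO replicate 3, where 167 of all genes changed.

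The difference between the times in the effect of MO was tested as an interaction, and no member passed with all 12 arrays, against 1.55% of 10392 genes. At an unadjusted p under 0.05 there were 6 of 76 members, against 1580 of the 10392 genes, so the share of members was lower. Positive values mean that MO minus MP was higher at 36 than at 24 hpf. The largest was 1.08 (SE 0.30, adjusted p = 0.103) for ndufa4l2a, which was at -1.38 at 24 hpf and -0.29 at 36 hpf. Values for other members were 0.96 (SE 0.47) for atp5pf, 0.85 (SE 0.28) for sdhaf2, 0.72 (SE 0.25) for sdhdb, 0.66 (SE 0.21) for sdha and 0.37 (SE 0.23) for ndufs1. The lowest was -0.61 (SE 0.23, adjusted p = 0.222) for ndufa4a. All 5 genes of complex II were above 0, as were 5247 of the 10392 genes. Without 36MO replicate 2, 7 of 76 members passed, all of them positive, against a background of 15.6% of all genes in either direction, 8.41% positive and 7.22% negative. The share of members that passed was thus below the background, and that of positive calls was close to it. The 7 members were sdha, sdhb and sdhdb of complex II, its assembly factor sdhaf2, atp5pf and atp5mc3a of ATP synthase, and ndufa4l2a, with values from 0.61 to 1.46.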

How the data were processed

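Total RNA of 12 embryo pools was hybridized to one-color arrays. The deposited files are scanner output of Agilent Feature Extraction 10.5.1.1, and per the file headers each holds background-subtracted, processed spot intensities that were not normalized between arrays. A series-wide table of linear intensities, processed and floored by the authors, served as an alternative only; its columns for 24MP replicates 2 and 3 follow each other's scanner file.

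Intensities were floored at 0.05 and divided by each array's median for the 19114 probes that exceeded 50 throughout the 12 arrays, and log2 was taken. Outlier spots were left out and repeat spots averaged. Of 43603 probes, 16770 had a symbol through their accession, and the brightest probe stood for a gene. Groups were compared with limma 3.58.1 (R 4.3.3; trend in eBayes) with Benjamini-Hochberg adjustment over all named genes tested and a threshold of 0.05, and only the groups compared entered a fit. Pairs of genes were compared by exact permutation with scipy 1.17.1. The number of arrays limits the precision.

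Members and gene lists were chosen with earlier results of these data known. Named genes were the largest changes in each role, the sdh genes, ndufa4 and its relatives, the inhibitors atp5if1a and atp5if1b, and the extremes of each list; others were named after their values were seen. Rules that needed protein or promoter sequences were not run. Alternatives changed the scaling, background correction, floor, filter, probe choice, test and block, and left out each array. An alternative added after seeing the data averaged 24MP replicates 1 and 3 as 1 replicate. 1 member is counted in the totals but not reported here on its own.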

Additional observations from a re-analysis of the deposited data

How the results depend on the processing

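The 40 members changed at 24 hpf became 13 with arrays scaled by their positive control spots and 11 when 1 model held all groups (the single fit), and lay between 28 and 41 without each array in turn. Their median of -0.23 became -0.67 with the positive control spots (all genes -0.42) and -0.29 with the authors' table, and -0.25 to -0.20 without each array. ndufaf2 reversed to -0.10 with the positive control spots. Of all genes, 5000 changed at 24 hpf in the main test, 2491 with the positive control spots and 2209 in the single fit. Without each array in turn, 4161 to 5072 of all genes changed. At 36 hpf the count of 0 became 1 in the single fit and 0 to 1 without each array, and the median of -0.19 became -1.46 with the positive control spots (all genes -1.23) and -0.31 to -0.11 without each array. Of all genes, 631 changed at 36 hpf in the main test, 1883 in the single fit and 19 to 1120 without each array. For MP over time, the count of 13 became 0 with the positive control spots, 6 with the methods' t-test on log2 values and 6 on linear values, 4 in the single fit, 4 with 24MP replicates 1 and 3 averaged, and 5 to 13 without each array. The median of 0.09 (all genes -0.06) became 0.26 with the positive control spots (all genes 0.11), so its distance from all genes stayed at 0.15. It was -0.03 with quantile normalization (all genes -0.08) and 0.01 to 0.17 without each array. Of all genes, 1847 changed for MP over time with the t-test on log2 values and 1631 on linear values. The single fit gave 2197 of all genes, averaging 24MP replicates 1 and 3 gave 1781, and removals of each array gave 1779 to 3117. For MO over time, the count of 2 became 0 with the positive control spots, 4 with quantile normalization, 1 with normexp, 6 with the floor after scaling, 1 with the mean of all probes, 1 with the t-test on linear values, 14 in the single fit and 0 to 38 without each array. The median of 0.14 (all genes -0.08) became -0.52 with the positive control spots (all genes -0.74), so its distance from all genes stayed at 0.22. It was -0.01 with quantile normalization (all genes -0.08), 0.09 with normexp (all genes 0.10), and 0.05 to 0.28 without each array. Of all genes, 1237 changed for MO over time with quantile normalization, 997 with normexp and 1069 with the floor after scaling. The mean of all probes gave 1118 of all genes, the t-test on linear values 457, the single fit 2565 and removals of each array 22 to 5061. The interaction count of 0 became 0 to 7 without each array, while that over all genes went from 161 to between 62 and 1619. Counts over all genes moved with the settings too. With the positive control spots they went from 3142 to 124 for MP over time and from 1204 to 96 for MO over time. The causes were not tested. With the replicate block the count was 34 at 24 hpf, 0 at 36 hpf, 14 for MP over time and 0 for MO over time. The counts over all genes with that block were 4597, 226, 3131 and 179, in the same order. After each gene's group mean was subtracted, same-numbered MO and MP arrays correlated at -0.167, -0.052 and -0.017 at 24 hpf. At 36 hpf these correlations were 0.152, 0.084 and -0.257. No steady pairing by number was seen, but 3 arrays per group cannot settle whether the samples were paired. The label of 36MO replicate 3 also describes it under another number, and the number of its title was used. For named members, 1128 of 1321 alternative values kept direction and side of the threshold. These include values that passed neither there nor in the main test. In 150 of the 1321 the direction was kept but a call of the main test was lost. The median SE over the members was 0.21 at 36 hpf and 0.09 at 24 hpf.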
